A study of Homo sapiens with 12 samples.

Results

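The Mediator complex and RNA polymerase II were examined through the splicing of their subunit genes. The genes were taken by name from a table of splicing events, as MED followed by a number, with or without a final L, and POLR2A to POLR2M. This gave 43 genes with 1838 of the 721551 events in the table. At least 20 reads in each of the 12 samples were found for 1479 of them. Of these, 428 had a mean level above 99% and 553 a mean level below 1%, and after the filters on level, intron balance and redundant sites 426 events in 40 genes were tested: 156 exons, 184 introns, 59 alternative 3′ splice sites and 27 alternative 5′ splice sites. MED12L, MED26 and POLR2L had no tested event.

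Mediator is a large complex that carries signals from enhancer-bound transcription factors to RNA polymerase II at promoters. Its head and middle modules contact the polymerase, its tail binds many activators, MED14 is the scaffold that joins the modules, and a detachable kinase module holds MED12 or MED12L, MED13 or MED13L, cyclin C and a cyclin-dependent kinase. Among the polymerase subunits, POLR2A is the largest and carries the repeated C-terminal domain, POLR2B forms the catalytic centre with it, and POLR2E, POLR2F, POLR2H, POLR2K and POLR2L are shared with the other nuclear RNA polymerases.

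All samples came from the established line MEC1, whose B cells stem from a chronic lymphocytic leukemia. The SF3B1 protein is the subunit of the spliceosome that holds the branch point of the intron, K700E is its most common change in this leukemia, and H3B-8800 is a small molecule that binds that protein. The 4 groups of 3 samples were K700E cells given H3B-8800, K700E cells given DMSO, wild-type (WT) cells given H3B-8800 and WT cells given DMSO, each for 6 h and with the drug at 75 nM. Per the labels, the 3 K700E cultures carried the coding changes c.2098A>G and c.2106G>A in SF3B1. WT culture 3 carried c.2106G>A alone, and WT cultures 1 and 2 carried neither. Samples of a genotype whose labels share a suffix were taken as 1 culture, sampled with the drug and with DMSO. The labels do not say what the suffixes mean or whether WT cultures 1 and 2 are separate lines. They also do not say whether an edited culture came from 1 cell, so the p-values describe the spread between these cultures only.

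The sequences of the events on which the results below turn are given here from GENCODE transcripts on GRCh38, 5′ to 3′ on the strand of the gene. The first pair shows the 2 sites of these genes that were called between K700E and WT cells without the drug. Lower case letters to the left are intron, capitals are the stretch that is added to the exon when the upstream 3′ site is used, and lower case letters to the right are the start of the exon from the downstream site. MED6 lies at chr14:70592979-70593069 and MED13L at chr12:115975304-115975409, both on the minus strand. Both sites follow AG.
MED6 alternative 3′ site: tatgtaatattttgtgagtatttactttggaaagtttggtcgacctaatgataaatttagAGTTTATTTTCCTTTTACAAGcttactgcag
MED13L alternative 3′ site: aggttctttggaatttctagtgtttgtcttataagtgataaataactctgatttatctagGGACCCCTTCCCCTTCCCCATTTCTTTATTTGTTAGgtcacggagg
Pyrimidines made up 50% of the 20 bases before the upstream AG of MED6 and 70% of the 20 before its downstream AG. For MED13L these shares were 60% and 85%.

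The next set shows, in capitals, some of the whole coding exons whose mean inclusion was below 50% after H3B-8800 in both genotypes. They lie at chr14:70585756-70585783 (MED6), chrX:71124764-71124844 and chrX:71125663-71125713 (MED12), chr22:20582611-20582747 (MED15) and chr17:6649982-6650078 (MED31).
MED6 exon: CTAAAGCCTGGAGAAAAGCCTGTTCCAG
MED12 exon a: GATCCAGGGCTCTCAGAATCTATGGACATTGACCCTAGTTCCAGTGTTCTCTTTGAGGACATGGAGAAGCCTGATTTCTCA
MED12 exon b: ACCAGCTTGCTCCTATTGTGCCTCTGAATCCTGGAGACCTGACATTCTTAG
MED15 exon: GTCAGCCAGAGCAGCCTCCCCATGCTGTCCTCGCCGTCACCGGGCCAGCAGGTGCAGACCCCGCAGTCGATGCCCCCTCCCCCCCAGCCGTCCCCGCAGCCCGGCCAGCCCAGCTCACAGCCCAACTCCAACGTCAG
MED31 exon: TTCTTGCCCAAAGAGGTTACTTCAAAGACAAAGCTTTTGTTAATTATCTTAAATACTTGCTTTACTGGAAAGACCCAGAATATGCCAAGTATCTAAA
The last pair shows short introns that were retained more after H3B-8800, with the intron in capitals and 10 bases of exon on each side in lower case. They lie at chr22:20585006-20585110 (MED15) and chr19:36114704-36114807 (POLR2I), flanks included.
MED15 intron: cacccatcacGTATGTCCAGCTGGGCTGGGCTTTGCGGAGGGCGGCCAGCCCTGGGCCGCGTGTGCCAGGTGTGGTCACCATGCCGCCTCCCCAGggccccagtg
POLR2I intron: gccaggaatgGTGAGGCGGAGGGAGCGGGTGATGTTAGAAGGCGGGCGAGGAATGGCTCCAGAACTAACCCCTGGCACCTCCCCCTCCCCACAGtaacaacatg
G and C made up 72.3% of the MED15 exon and 33% of the MED31 exon.

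The samples held 45840233 to 56676172 exon-exon reads over annotated introns. The median tested event of these genes had 159 to 329 reads in a sample, and at the overall median of 235 reads a level of 50% carries a 95% Wilson interval of about 6.34 points to each side, which covers counting error only. B cell markers fitted the label, summing over 8 genes to 3738 to 7078 RPM, the spliced reads of a gene scaled to the total of exon-exon reads in the sample. The 6 myeloid markers summed to 0.386 to 1.69 RPM, and the 8 T and NK cell markers to 7.38 to 36.7 RPM, most of it GNLY. Summed over 6 fibroblast and epithelial markers, 11.4 to 20 RPM were found. In bulk RNA, fewer cells of a type and less RNA per cell cannot be told apart.

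H3B-8800 changed the splicing of these genes in 1 main pattern, as over all genes: exons were skipped and introns were retained. In K700E cells 130 of 426 events were called against DMSO, at a limma adjusted p under 0.05 over all events and a difference of at least 10 percentage points. This was 30.5%, against 31.3% of all tested events in the table. WT cells had 131 called events, or 30.8%, against 32% of all tested events. In K700E cells 61 of 156 exons fell (39.1%, against 38.5% of all exons) and 0 rose (0.443% of all exons did). Of 184 introns in K700E cells, 62 rose (33.7%, against 31.6% of all introns) and 1 fell (0.363% of all introns did). In WT cells 63 exons fell (40.4%, against 40.3%) and 0 rose (0.501% of all exons did). Of the introns in WT cells, 63 rose (34.2%, against 31.9%) and 1 fell (0.361% of all introns did). Alternative 3′ sites were called at 5 of 59 in K700E cells (8.47%, against 12.2% of all such sites) and at 2 in WT cells (3.39%, against 9.24%). Among 27 alternative 5′ sites, 1 was called in K700E cells (3.7%, against 5.59%) and 2 in WT cells (7.41%, against 7.06%), all of them in MED12. The shares of exons and introns were near those over all genes. Of 147 events called in either genotype, 114 were called in both, and the 147 lay in 29 of the 40 genes. The matching counts over all genes were not computed, so these counts are not read as particular to these genes.

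Mean inclusion of the 156 exons was 75.3% ± 0.173 with H3B-8800 and 87.7% ± 0.231 with DMSO in K700E cells (SD, n = 3). In WT cells it was 74.1% ± 1.05 with H3B-8800 and 87.5% ± 0.0577 with DMSO. Mean retention of the 184 introns was 13.9% ± 1.08 with H3B-8800 and 3.9% ± 0.116 with DMSO in K700E cells. WT cells had 14.1% ± 1.21 with H3B-8800 and 3.68% ± 0.468 with DMSO. Every sample with the drug lay on the far side of every sample without it for both means. The median exon moved by -5.95 points in K700E cells and -6.35 points in WT cells, against -6.47 and -6.88 points over all 46284 exons. The median intron moved by 5.8 points in K700E cells and 5.96 points in WT cells, against 5.02 and 4.92 points over all 45192 introns.

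**Figure D1:**
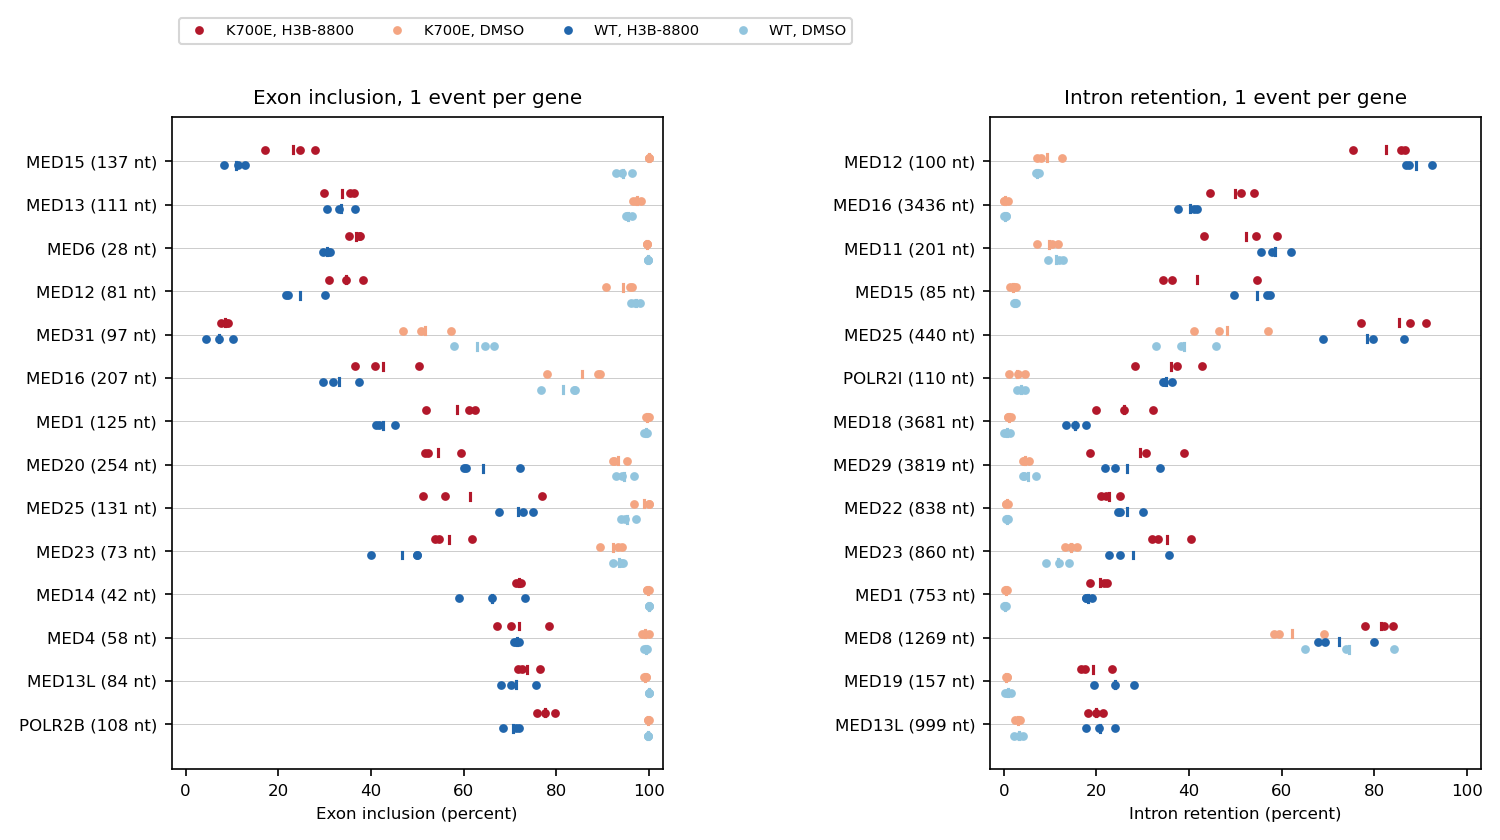
Inclusion of exons (left) and retention of introns (right) in percent, for the 14 genes of each kind with the largest difference in K700E cells. Each point is 1 sample and each short bar the mean of 3; the MED15 exon of 137 nt lies at 8.3% to 28% in the 6 drug samples and at 92.9% to 100% in the 6 DMSO samples.

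In the kinase module 44 of 110 events were called in K700E cells and 43 in WT cells. The shares over all tested events were 31.3% and 32%. Most of the calls of the module lay in MED12, which activates the kinase of the module. Its gene on chromosome X had 13 of 18 tested exons called lower in K700E cells and 12 in WT cells (38.5% and 40.3% of all exons). Of its 31 tested introns, 18 were called higher in each genotype (31.6% and 31.9% of all introns in K700E and WT cells). The intron with the largest difference, 100 nt long after exon 25, was retained at 85.8%, 86.6% and 75.4% in K700E cells with H3B-8800, against 7.2%, 8.1% and 12.6% with DMSO. WT cells retained it at 92.5%, 86.9% and 87.5% with H3B-8800 and at 6.9%, 7.1% and 7.6% with DMSO. Thus the intron was in most of the transcripts counted with the drug and in few without it, and the groups did not overlap (differences of 73.3 points in K700E cells, adjusted p = 2.89e-07, and 81.7 points in WT cells, adjusted p = 7.07e-08). An intron of 186 nt, the 18th of the gene, rose by 59.2 points in K700E cells and 57.3 points in WT cells. The intron of 512 nt after exon 43 rose by 55.8 points in K700E cells and 63.5 points in WT cells.

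Skipping in MED12 reached most transcripts for exon 14, the exon of 81 nt printed above. Its inclusion was 38.3%, 34.6% and 31% in K700E cells with H3B-8800, against 96.4%, 90.8% and 96% with DMSO. WT cells had 22.1%, 30.2% and 21.7% with H3B-8800 and 97%, 98.2% and 96.2% with DMSO. The drug samples of both genotypes lay far below all DMSO samples, with adjusted p = 9.27e-07 in K700E cells and 1.06e-07 in WT cells. Exon 17, of 51 nt, had a mean inclusion of 45.3% ± 4.43 with H3B-8800 and 98.5% ± 1.58 with DMSO in K700E cells, and of 40.5% ± 4.74 and 95.5% ± 2.04 in WT cells. Both exons have a length divisible by 3, but exon 34, of 110 nt, does not. Its mean inclusion was 45.8% ± 2.98 with H3B-8800 and 97.2% ± 2.72 with DMSO in K700E cells. The WT means of exon 34 were 35.9% ± 2.51 with H3B-8800 and 98.7% ± 0.711 with DMSO. An intron of 177 nt at chrX:71137384-71137560 fell with the drug. Its level was 36.1%, 40.8% and 36% in K700E cells with H3B-8800, against 62.3%, 56.2% and 62.6% with DMSO. The WT levels were 28%, 31.8% and 33.1% with H3B-8800 and 49.4%, 74% and 57.8% with DMSO. It was the only intron of the 184 called lower, in either genotype (adjusted p = 0.0152 in K700E cells and 0.00261 in WT cells), and the exons on both of its sides fell in K700E cells, with differences of -39.2 and -40.1 points.

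**Figure D2:**
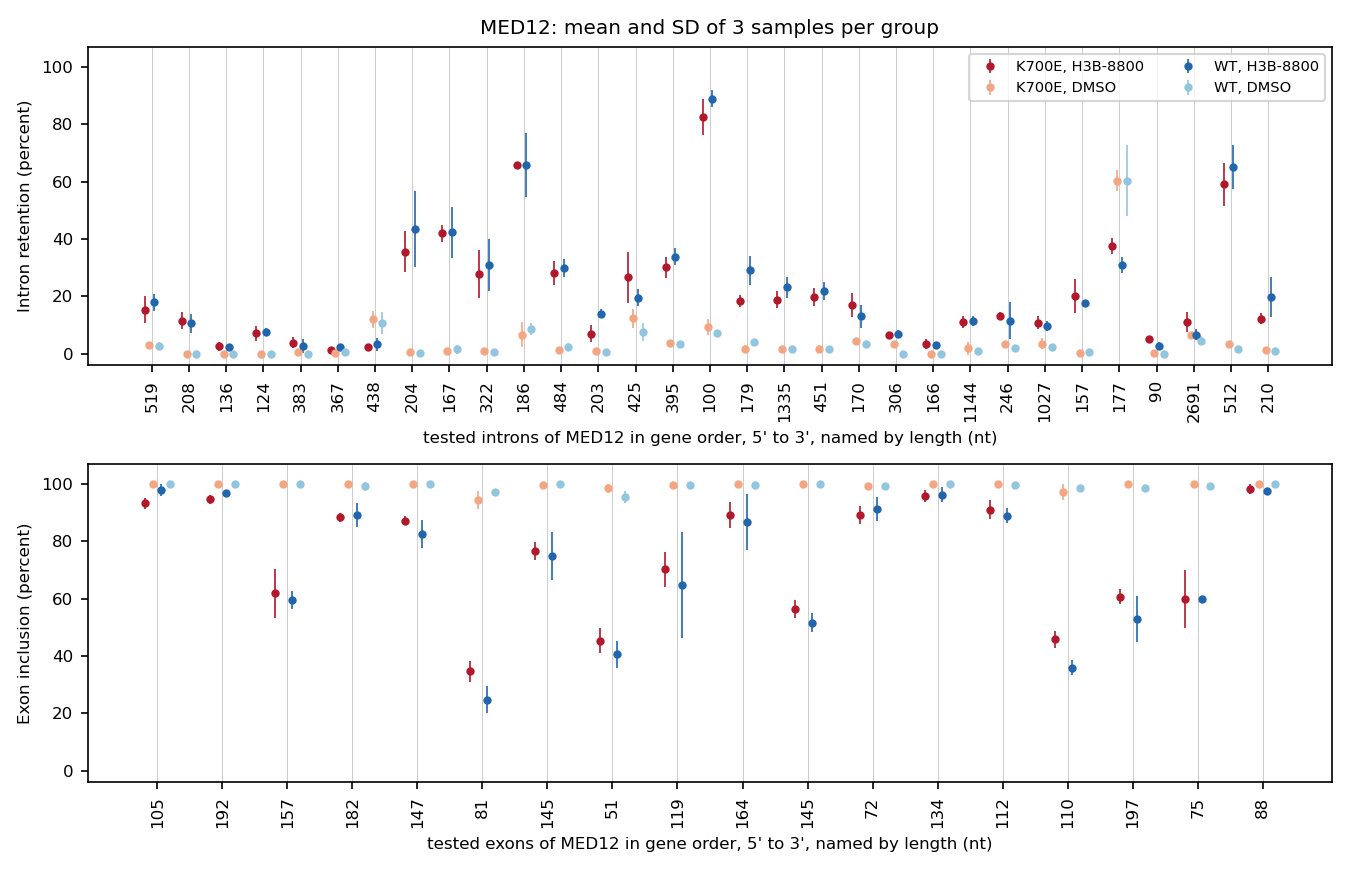
Retention of the 31 tested introns (top) and inclusion of the 18 tested exons (bottom) of MED12 in percent, in gene order; points are means of 3 samples per group and bars the SD. Retention with the drug peaks at the intron of 100 nt, at 82.6% in K700E and 89% in WT cells, and the intron of 177 nt is the 1 called lower with the drug.

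MED13 and MED13L, paralogs that join the kinase module to the rest of Mediator, lost exons. In MED13, 6 of 16 tested exons and none of 4 tested introns were called in each genotype. Its exon 8, of 111 nt at chr17:62029541-62029651, was included at 35.4%, 29.8% and 36.3% in K700E cells with H3B-8800, against 98.3%, 97.3% and 96.6% with DMSO. In WT cells the exon was included at 33.2%, 30.6% and 36.6% with H3B-8800 and at 95.4%, 95.1% and 96.3% with DMSO. Each group kept within a few points, with 442 to 843 reads per sample, and the adjusted p was 1.65e-08 in K700E cells and 3.08e-08 in WT cells. MED13L lost 3 of 7 tested exons in each genotype, led by an exon of 84 nt with 73.6% ± 2.55 and 99.2% ± 0.286 in K700E cells with H3B-8800 and DMSO.

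The tail, which binds activators, had 118 tested events, of which 45 were called in K700E cells and 41 in WT cells. Over all genes 31.3% and 32% of tested events were called. MED15, a target of activators of lipid genes, held the largest difference among the tested events of these genes, in its exon 10 of 137 nt. Inclusion of that exon was 24.6%, 17.2% and 28% in K700E cells with H3B-8800, against 100% in all 3 samples with DMSO. WT cells included it at 11.4%, 12.8% and 8.3% with H3B-8800 and 92.9%, 94.3% and 96.3% with DMSO. Thus an exon present in nearly all transcripts was skipped in most of them with the drug, with differences of -76.7 points in K700E cells (adjusted p = 9.25e-09) and -83.6 points in WT cells (adjusted p = 4.47e-08), on 33 to 114 reads per sample. The exon before it, of 120 nt, was included at 18.3% ± 2.16 with H3B-8800 and 68.6% ± 5.96 with DMSO in K700E cells, and at 15.5% ± 5.59 and 64.5% ± 1.52 in WT cells. The MED15 intron of 85 nt printed above was retained at 36.4%, 34.4% and 54.6% in K700E cells with H3B-8800, against 1.4%, 2.2% and 2.6% with DMSO. WT cells retained it at 49.6%, 57.5% and 56.9% with H3B-8800 and at 2.1%, 2.5% and 2.7% with DMSO.

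MED25, another activator-binding subunit, had 10 of 14 tested introns called higher in K700E cells and 9 in WT cells (31.6% and 31.9% of all introns). Its last intron, of 440 nt, was retained at 87.7%, 91.1% and 77.2% in K700E cells with H3B-8800 and at 46.5%, 57% and 41.1% with DMSO. In WT cells the levels were 69%, 86.5% and 79.7% with H3B-8800 and 38.2%, 32.8% and 45.9% with DMSO. This intron was thus common without the drug too, and the groups did not overlap (adjusted p = 4.78e-04 in K700E cells and 7.2e-04 in WT cells). MED16 retained a long intron, of 3436 nt, at 49.9% ± 4.92 with H3B-8800 and 0.26% ± 0.45 with DMSO in K700E cells, and at 40.2% ± 2.22 and 0.247% ± 0.214 in WT cells. MED23, which mediates signals from growth factor pathways, lost its exon of 73 nt, by -35.5 points in K700E cells and -46.9 points in WT cells. MED24 had 0 of 8 exons called and its 1 tested intron called higher in both genotypes. In the scaffold MED14, 5 of 9 exons were called lower in each genotype (38.5% and 40.3% of all exons in K700E and WT cells). The most changed of them, of 42 nt, moved by -27.8 points in K700E cells and -33.9 points in WT cells.

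In the head, 11 of 57 events were called in K700E cells and 12 in WT cells, with at least 1 call in all 8 genes. Both shares lay below the 31.3% and 32% over all tested events. MED6, a conserved head subunit, lost its exon 7 of 28 nt. Its inclusion was 35.2%, 37.4% and 37.6% in K700E cells with H3B-8800, against 99.6%, 99.7% and 99.7% with DMSO. In WT cells the exon was included at 31.1%, 30.7% and 29.7% with H3B-8800 and at 99.8%, 99.8% and 99.9% with DMSO. With 949 to 1428 reads per sample, each group of 3 spanned few points (-62.9 points in K700E cells, adjusted p = 1.73e-09, and -69.3 points in WT cells, adjusted p = 9.14e-10). The 28 nt are not a multiple of 3. MED17, which forms the core of the head, had 1 of 6 exons called lower in K700E cells and 3 in WT cells.

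Both introns of MED11, a small head subunit, were retained. The first, of 201 nt, was retained at 59%, 54.5% and 43.2% in K700E cells with H3B-8800 and at 7.1%, 11.7% and 10.5% with DMSO. WT cells retained it at 55.6%, 62.1% and 58% with H3B-8800 and at 9.6%, 12.7% and 11.8% with DMSO. The second, of 1143 nt, rose by 38.8 points in K700E cells and 47.3 points in WT cells. Among the other head genes, introns of MED18, MED19 and MED22 rose by 18.6 to 24.8 points in K700E cells and by 14.8 to 26 points in WT cells. MED20 lost its exon of 254 nt, with 54.5% ± 4.22 and 93.4% ± 1.62 in K700E cells with H3B-8800 and DMSO, and 64.3% ± 6.97 and 94.7% ± 1.98 in WT cells. MED8 had 1 event called in K700E cells alone, a retained intron of 1269 nt. It stood at 82%, 84.1% and 77.9% in K700E cells with H3B-8800 and at 58.3%, 59.4% and 69.2% with DMSO, and at 69.3%, 67.9% and 80% in WT cells with H3B-8800 and 65.1%, 73.9% and 84.3% with DMSO. The difference between the 2 drug effects was 21.1 points and was not called (adjusted p = 0.63).

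In the middle module 6 of 45 events were called in K700E cells and 9 in WT cells, and they lay in MED1, MED4 and MED31. These shares were below the 31.3% and 32% over all tested events. MED1, which binds nuclear receptors, lost its exon of 125 nt. Inclusion was 52%, 62.5% and 61.2% in K700E cells with H3B-8800, against 99.8%, 100% and 99.3% with DMSO. WT cells included it at 41.7%, 41.1% and 45.2% with H3B-8800 and at 99.5%, 99.7% and 98.9% with DMSO. Exon 3 of MED31, a small conserved subunit, was included at 8.8%, 9.2% and 7.7% in K700E cells with H3B-8800, against 46.9%, 57.4% and 50.9% with DMSO. WT cells included it at 7.2%, 10.3% and 4.4% with H3B-8800 and at 64.6%, 57.9% and 66.5% with DMSO. An exon that was alternative without the drug thus fell to a low level in all drug samples (adjusted p = 5.8e-06 in K700E cells and 8.03e-07 in WT cells). MED10, MED21, MED7 and MED9 had 3, 4, 2 and 2 tested events and none called.

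At the border of head and tail, MED28 gained a 3′ splice site 20 nt from the other site. Its use was 24.4%, 26.1% and 19.3% in K700E cells with H3B-8800 and 0.2%, 1% and 0.8% with DMSO. WT cells used the site at 18.7%, 16.1% and 15.7% with H3B-8800 and 0.6%, 0.2% and 0.2% with DMSO. The site was near absent without the drug and used in all 6 drug samples (adjusted p = 1.23e-06 in K700E cells and 6.85e-07 in WT cells). Both tested introns of MED29 rose, the longer one, of 3819 nt, by 24.7 points in K700E cells and 21.4 points in WT cells. MED30 lost both of its tested exons, and MED27 had 3 tested introns and no call.

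Of 75 tested events in the polymerase genes, 13 were called in K700E cells and 15 in WT cells. Both shares were below the 31.3% and 32% over all tested events. POLR2I, a small core subunit, was the gene among them with the most retention. All 5 of its introns, of 84 to 246 nt, were called higher in both genotypes (31.6% and 31.9% of all introns). The intron of 84 nt printed above was retained at 42.1%, 34.4% and 33.9% in K700E cells with H3B-8800 and at 15.4%, 13.6% and 13.8% with DMSO. WT cells retained it at 33.9%, 29.9% and 34% with H3B-8800 and at 14.4%, 16.4% and 15.1% with DMSO. Every drug sample lay above every DMSO sample, on 446 to 728 reads (adjusted p = 3.1e-05 in K700E cells and 1.97e-04 in WT cells). POLR2B lost an exon of 108 nt, included at 77.7% ± 1.9 with H3B-8800 and 99.9% ± 0.0493 with DMSO in K700E cells, and at 70.6% ± 1.77 and 99.9% ± 0.0379 in WT cells. POLR2A, with 4 tested exons and 13 tested introns, had no called exon, 1 intron called higher in K700E cells and 3 in WT cells. POLR2H used an alternative 3′ site at 25%, 25.1% and 27.2% in K700E cells with H3B-8800, against 3.2%, 3.5% and 3.3% with DMSO. In WT cells the site was used at 27%, 30% and 26.4% with H3B-8800 and at 5.3%, 8.3% and 5.6% with DMSO. POLR2G had 1 of 3 exons called lower and 1 of 3 introns called higher in K700E cells, and 2 of each in WT cells. POLR2E had 1 of 6 introns called, in K700E cells alone. POLR2C, POLR2D, POLR2F, POLR2J, POLR2K and POLR2M had no called event.

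The share of introns that were retained more was highest below 1000 nt. There were 47 introns of 1 to 150 nt with enough reads and balanced junctions in these genes, whatever their mean level, and 25.5% of them were called higher in K700E cells and 29.8% in WT cells. Over all genes this class had 35.4% in K700E cells and 36.2% in WT cells. For introns of 151 to 500 nt the shares were 29.1% and 27.9% in K700E and WT cells, against 32.9% and 33% over all genes. Introns of 501 to 1000 nt had 27.7% and 23.4%, against 22% and 21.8% over all genes. Of 122 introns of 1001 to 5000 nt, 9.84% and 11.5% were called, against 13.6% and 13.7% over all genes. None of 32 longer introns was called, against 4.1% and 4.46% over all genes. Skipped exons had a length divisible by 3 in 42.6% of 61 cases in K700E cells and 39.7% of 63 in WT cells, against 37% of 300 exons of these genes that were mostly included and not called. Over all genes the share was 37.4% of skipped exons in K700E cells, against 38.4% of exons mostly included and not skipped. In WT cells these shares over all genes were 37.3% and 38.5%, so skipped exons were not the higher there.

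**Figure D3:**
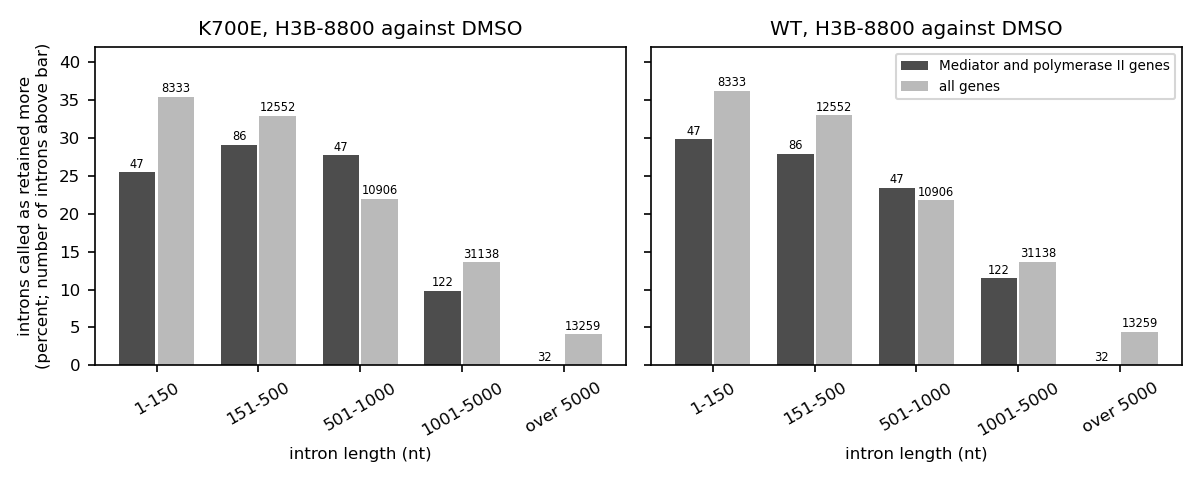
Share of introns called as retained more with H3B-8800, in percent, by intron length, for K700E cells (left) and WT cells (right); dark bars are the Mediator and polymerase II genes, light bars all genes, with the number of introns above each bar. The shares of introns over 1000 nt are below those of shorter introns in both sets.

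Without the drug, 2 of the 426 events were called between K700E and WT cells (0.469%, against 0.349% of all tested events). Both were alternative 3′ sites, of which 59 were tested (3.39%, against 2.62% of all such sites). At an unadjusted p under 0.05 there were 62 of the 426 events (14.6%, against 13.5% of all tested events). Some events had an adjusted p under 0.05 but missed the call because they differed by less than 10 points. Examples are MED13 3′ sites of 67 nt (6.1 points, limma adjusted p = 0.00217) and 140 nt (-7.94 points, adjusted p = 0.0135). Another is MED15 exon 10 (5.51 points, adjusted p = 4.33e-04). In MED6 the site 21 nt upstream, within the intron before exon 5, was used at 28.6%, 26.7% and 25.4% in K700E cells with DMSO, against 1.2%, 2.4% and 2.7% in WT cells with DMSO. All K700E cultures were high and all WT cultures low, including WT culture 3, which shares the coding change c.2106G>A (24.8 points, adjusted p = 4.54e-05). In MED13L the site 36 nt upstream of an exon of 143 nt was used at 17.5%, 14.5% and 17.1% in K700E cells with DMSO. It was used at 1.7%, 0% and 2.4% in WT cells with DMSO. The groups did not overlap (15 points, adjusted p = 0.0175), but in a fit of these 6 samples alone the adjusted p was 0.0662. Leaving out K700E culture 1 or 3 gave 0.0538 and 0.053. Both stretches, of 21 and 36 nt, have lengths divisible by 3, and the exons that hold them are annotated.

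These 2 sites moved in opposite directions with the drug in K700E cells. The MED6 site was used at 14.8%, 16.5% and 14.5% in K700E cells with H3B-8800, below all 3 K700E samples with DMSO (-11.6 points, adjusted p = 0.016). In WT cells it stood at 1.7%, 1.8% and 3.2% with H3B-8800 (0.147 points, adjusted p = 0.837). The MED13L site was used at 38.5%, 36.6% and 40.9% in K700E cells with H3B-8800, above all 3 with DMSO (22.3 points, adjusted p = 0.0459, and 0.0944 with the culture as a block). WT cells used it at 9.6%, 10.7% and 1.4% with H3B-8800, so that WT culture 3 lay among the DMSO samples. The call in K700E cells was lost when any 1 of the 6 K700E samples was left out, with an adjusted p of 0.077 to 0.104. The difference of the drug effect, K700E minus WT, was called at 0 of the 426 events on the logit scale by limma, 10 events being called over the whole table (0.00917%), and 33 of the 426 events had an unadjusted p under 0.05 (7.75%, against 7.23% of all tested events). On the scale of percentage points the same fit called these 2 sites alone, MED6 at -11.8 ± 1.29 points (SE, adjusted p = 0.00204) and MED13L at 16.4 ± 3.15 points (adjusted p = 0.0391).

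**Figure D4:**
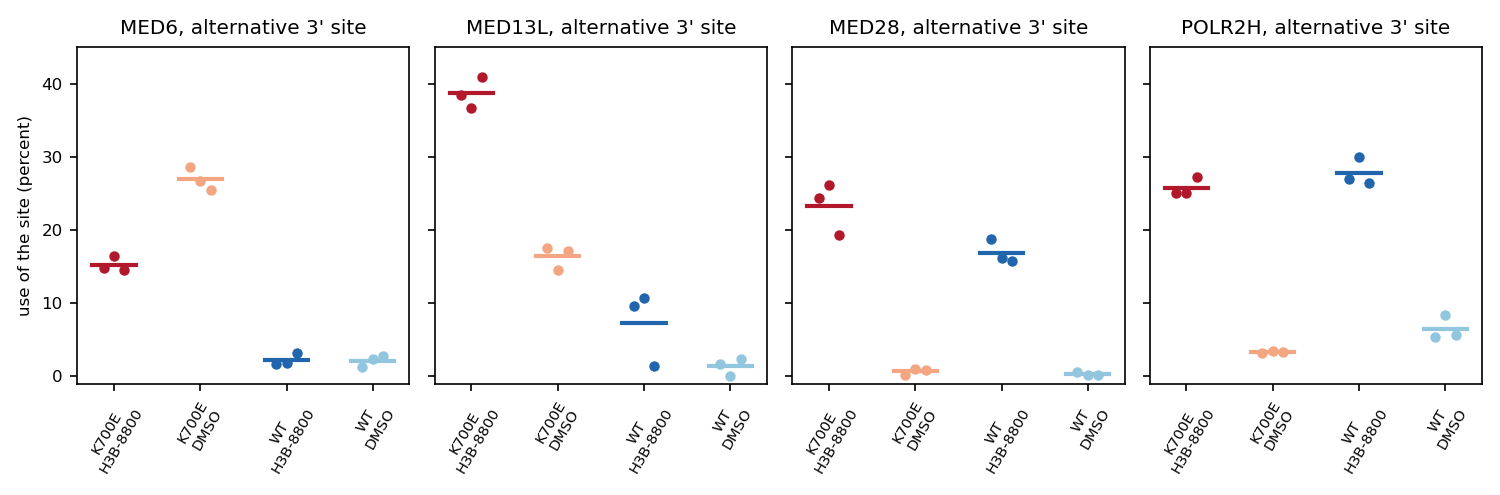
Use of 4 alternative 3′ splice sites in percent; each point is 1 sample and each bar the mean of 3. The MED6 and MED13L sites are higher in K700E than in WT cells with DMSO, while the MED28 and POLR2H sites lie at 15.7% or more with H3B-8800 and at 8.3% or less with DMSO in both genotypes.

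Spliced reads per gene were summed over the exon-exon junctions of annotated introns as a measure of spliced transcripts. Reads over a skipped exon enter the sum only if an annotated intron spans the same 2 ends, so skipping can lower it. With H3B-8800, 27 of 42 genes were called in K700E cells, 12 higher and 15 lower (52% of all genes were called, 16.2% higher and 35.8% lower). In WT cells 28 were called, 11 higher and 17 lower (59.3% of all genes, 18.5% higher and 40.8% lower). This fit does not pair the samples by culture. With the culture as a block 35 genes were called in K700E cells and 39 in WT cells (78.3% and 82.4% of all genes). The median over all 10182 genes moved by -0.22 in K700E cells and -0.28 in WT cells on the log2 scale, and the median of the 42 genes by -0.15 and -0.21. Under median-of-ratios scaling the medians over all genes were 0.04 and 0.03, and the split became 17 higher and 12 lower in K700E cells and 16 higher and 13 lower in WT cells. The same turn was seen over all called genes, of which 53.6% were higher in K700E cells and 53.2% in WT cells under that scaling, against 31.2% in each under total reads. The call on POLR2H, at -0.2 and -0.24, was lost under that scaling, with differences of 0.06 and 0.07 (limma adjusted p = 0.655 and 0.551). MED26 is listed at 0 spliced reads in all samples.

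The genes that fell most included POLR2A. It had 109, 114 and 106 RPM in K700E cells with H3B-8800, against 392, 339 and 308 RPM with DMSO. The WT levels were 61.6, 61.3 and 57.5 RPM with H3B-8800 and 196, 232 and 236 RPM with DMSO. All drug samples lay below all DMSO samples of their genotype, by -1.65 ± 0.1 (log2, SE; adjusted p = 9.01e-07) in K700E cells and -1.88 ± 0.1 (adjusted p = 1.8e-07) in WT cells. Each of its 28 introns was lower in all drug samples, with log2 differences of -1.86 to -1.31 in K700E cells and -2.16 to -1.53 in WT cells. By comparison POLR2B, chosen after its values were seen, rose by 0.72 ± 0.07 in K700E cells and 0.8 ± 0.07 in WT cells, and each of 24 introns with enough reads was higher in all drug samples.

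MED29 fell most of the 42 genes. It had 2.77, 2.19 and 3.29 RPM in K700E cells with H3B-8800 and 16.1, 14.7 and 13.3 RPM with DMSO. WT cells had 2.47, 2.83 and 2.45 RPM with H3B-8800 and 13.3, 14 and 16.7 RPM with DMSO. The groups lay far apart (log2 difference of -2.43 ± 0.17 in K700E cells, adjusted p = 1.6e-06, and -2.5 ± 0.17 in WT cells, adjusted p = 6.48e-07). MED11 had 1.27, 1.97 and 1.67 RPM in K700E cells with H3B-8800 and 6.4, 5.96 and 4.5 RPM with DMSO. In WT cells it had 1.14, 1.5 and 1.32 RPM with H3B-8800 and 5.5, 5.22 and 5.22 RPM with DMSO. Unspliced reads made up 54.2% and 12.7% of the junction reads of MED11 in K700E cells with H3B-8800 and DMSO, and 60.2% and 13.2% in WT cells. For MED29 the shares were 27.3% and 2.52% in K700E cells and 25.5% and 2.54% in WT cells. POLR2A had 3.59% and 0.69% in K700E cells and 3.69% and 0.787% in WT cells. The share of unspliced reads with the drug was thus lower in POLR2A than in MED11 and MED29. The unspliced reads of POLR2A were 4.09 ± 0.624 RPM in K700E cells with H3B-8800, against 2.37 ± 0.129 RPM with DMSO (SD). In WT cells they were 2.29 ± 0.691 RPM and 1.78 ± 0.547 RPM, a difference within the SDs.

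Among the other genes that fell, MED14 had 6.52, 5.32 and 5.32 RPM in K700E cells with H3B-8800 and 15.5, 13.4 and 11.8 RPM with DMSO, over the 4 introns of the gene in the table. MED18 had 9.38, 2.94 and 5.12 RPM in K700E cells with H3B-8800 and 18.4, 9.48 and 11.3 RPM with DMSO, with culture 1 high in both. MED15 had 35.6, 27.7 and 34.3 RPM in K700E cells with H3B-8800 and 71.4, 61.8 and 64.9 RPM with DMSO. All drug samples of MED14 and MED15 lay below all DMSO samples. The log2 differences of MED14, MED18 and MED15 were -1.24, -1.27 and -1.03 in K700E cells and -1.23, -1.21 and -0.84 in WT cells. MED1 moved by -1.01 ± 0.08 in K700E cells and -0.92 ± 0.08 in WT cells, MED22 by -0.83 ± 0.14 and -1.12 ± 0.14, and MED27 by -0.7 ± 0.11 and -1.06 ± 0.11. In the tail 3 of 5 genes fell in K700E cells and 4 in WT cells, and 0 rose (35.8% and 40.8% of all genes fell). With the culture as a block all 5 were called lower in both genotypes. The block called 78.3% and 82.4% of all genes in either direction, with 5241 of 10182 genes lower in K700E cells and 5550 in WT cells. In K700E cells it gave MED16 at -0.3 (adjusted p = 0.0291) and MED23 at -0.19 (adjusted p = 0.0152). In WT cells it gave MED23 at -0.24 (adjusted p = 0.0035). MED23 thus moved no further than the median of all genes, at -0.22 and -0.28. Under median-of-ratios scaling MED23 stood at 0.07 in K700E cells and 0.08 in WT cells, above 0. MED16 stood at -0.04 and -0.2 under that scaling and was not called (limma adjusted p = 0.852 and 0.281). MED25 lost its call in K700E cells under that scaling, at -0.31 (adjusted p = 0.0958). In WT cells MED25 kept it, at -0.58 (adjusted p = 0.00535).

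Spliced reads of MED13, MED13L and most of the shared polymerase subunits rose. MED13L had 264, 274 and 202 RPM in K700E cells with H3B-8800 and 119, 128 and 94.8 RPM with DMSO. WT levels were 99.9, 92.9 and 79.8 RPM with H3B-8800 and 48.5, 40.2 and 38 RPM with DMSO. Drug samples were above DMSO samples in each genotype, by 1.12 ± 0.15 (adjusted p = 1.29e-04) in K700E cells and 1.11 ± 0.15 (adjusted p = 9.72e-05) in WT cells. MED13 had 297, 252 and 278 RPM in K700E cells with H3B-8800 and 185, 162 and 158 RPM with DMSO, and each of its 29 introns was higher in all drug samples of both genotypes. MED6 had 125, 120 and 125 RPM in K700E cells with H3B-8800 and 62, 66.5 and 67.5 RPM with DMSO. WT cells had 110, 118 and 124 RPM with H3B-8800 and 66.6, 67.9 and 66.8 RPM with DMSO. MED6 thus rose, by 0.92 ± 0.07 in K700E cells and 0.81 ± 0.07 in WT cells, while its exon of 28 nt was skipped in most transcripts. MED21 rose by 0.98 ± 0.11 in K700E cells and 0.91 ± 0.11 in WT cells, and POLR2L by 0.84 ± 0.19 and 0.81 ± 0.19. Of the 5 shared subunits, 4 rose in K700E cells and 3 in WT cells (16.2% and 18.5% of all genes were called higher). In K700E cells the calls on POLR2E and POLR2F were lost in 4 and 5 of 13 alternative fits (limma adjusted p of up to 0.149 and 0.126). MED12, with its many events, had a difference of -0.2 ± 0.16 in K700E cells and -0.34 ± 0.16 in WT cells and was not called (adjusted p = 0.314 and 0.0864), but was called with the culture as a block (0.0128 and 3.82e-04). Under median-of-ratios scaling the MED12 difference was 0.06 in K700E cells and -0.02 in WT cells. Its paralog MED12L was low, at 5.34, 3.63 and 2.24 RPM in K700E cells with H3B-8800 and 5.15, 4.49 and 2.3 RPM with DMSO. In WT cells MED12L stood at 0.783, 0.802 and 3.39 RPM with H3B-8800 and 0.829, 0.988 and 3.02 RPM with DMSO, so that WT culture 3 lay within the range of the K700E cultures under both treatments.

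**Figure D5:**
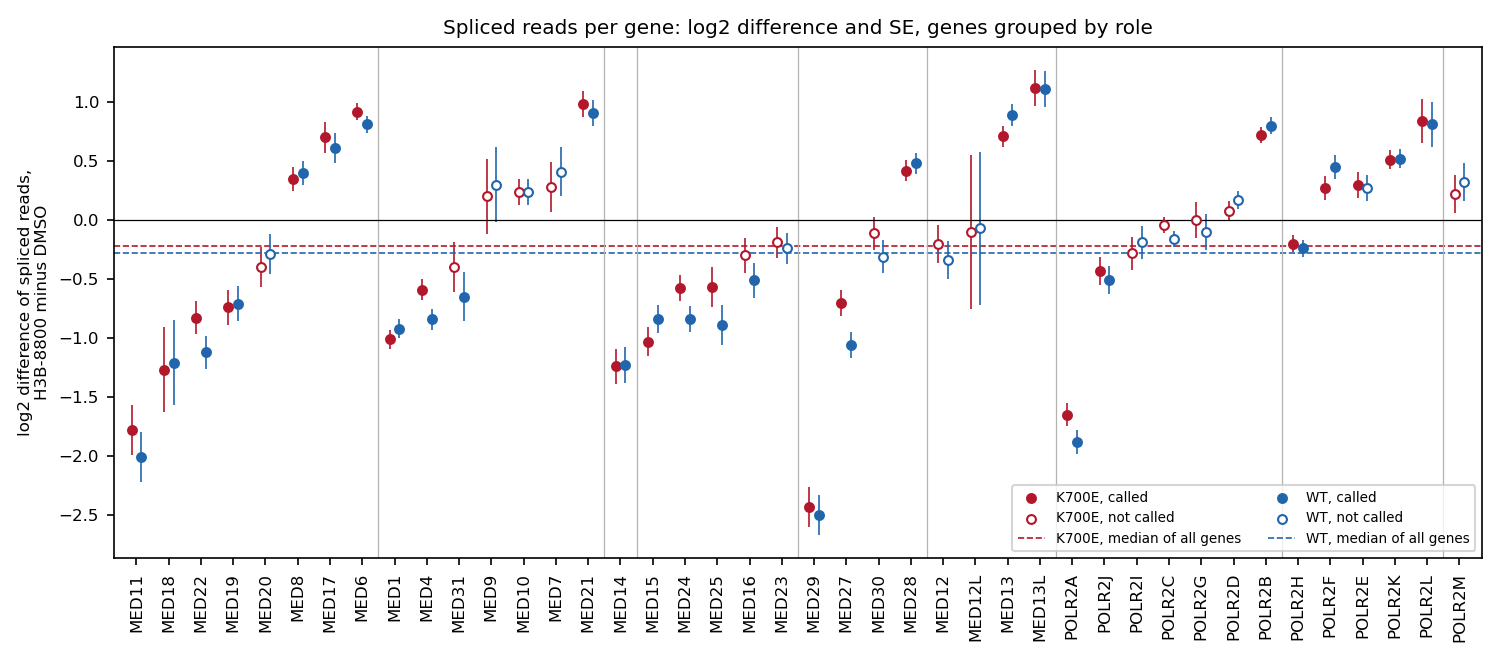
Log2 difference of spliced reads per gene, H3B-8800 minus DMSO, with its SE, for 42 genes grouped by role (grey lines), in K700E (red) and WT cells (blue); filled points were called and dashed lines are the medians of all genes. POLR2A, at -1.65 in K700E cells and -1.88 in WT cells, stands apart from the other polymerase subunits, which lie between -0.51 and 0.84.

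Without the drug, 4 of 42 genes had more spliced reads in K700E than in WT cells and 0 fewer (9.52%, against 4.86% of all genes called and 2.91% called higher). MED13L had 119, 128 and 94.8 RPM in K700E cells with DMSO, against 48.5, 40.2 and 38 RPM in WT cells with DMSO (log2 difference of 1.43 ± 0.15, adjusted p = 0.00102). POLR2A had 392, 339 and 308 RPM in K700E cells with DMSO, against 196, 232 and 236 RPM in WT cells with DMSO (0.64 ± 0.1, adjusted p = 0.00642). Every K700E culture was above every WT culture for both genes, and both were called in all 13 settings run. MED13, at 0.44 ± 0.09, and MED1, at 0.35 ± 0.08, were called in 8 and 5 of the 13 settings, with adjusted p of up to 0.111 and 0.149. The difference of the drug effect on spliced reads was called for 0 of 42 genes by limma, and 1 gene had an unadjusted p under 0.05 (against 5% of all genes), with 5 of 10182 genes called in all (0.0491%). With the culture as a block 1 of the 42 genes was called (2.38%, against 6.05% of all genes), MED27 at 0.37 ± 0.09 (adjusted p = 0.0342).

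The kinase module partners CCNC, CDK8 and CDK19 had 15 of 50 events called in K700E cells (30%, against 31.3% of all tested events). In WT cells 11 were called (22%, against 32%). CCNC, the gene of cyclin C, had 17.4, 19.1 and 21.8 RPM in K700E cells with H3B-8800 and 34.3, 39.4 and 41.6 RPM with DMSO. In WT cells it had 21.4, 18.5 and 15.7 RPM with H3B-8800 and 66.7, 56.8 and 57.5 RPM with DMSO. CCNC and CDK19 fell in both genotypes and 0 of the 3 rose. CDK8 was lower in K700E than in WT cells with DMSO, at 23.3, 33.9 and 24.8 RPM against 64.5, 57.7 and 57.8 RPM (log2 difference of -1.15, adjusted p = 0.00379). An alternative 3′ site of CDK8 was used at 15.4%, 10.6% and 18.2% in K700E cells with DMSO, against 0%, 0.3% and 0.3% in WT cells with DMSO (adjusted p = 0.00208).

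The median log2 difference of the 3 genes was -0.73 in K700E cells and -0.76 in WT cells. Among 18 general transcription factor genes, 17 had enough reads. Of these, 5 rose and 6 fell in K700E cells and 6 rose and 7 fell in WT cells. Over all genes 16.2% rose and 35.8% fell in K700E cells, and 18.5% rose and 40.8% fell in WT cells. GTF2H1, a subunit of the factor that opens the promoter, had 37.7, 37.5 and 34.3 RPM in K700E cells with H3B-8800 and 118, 126 and 104 RPM with DMSO. Of 168 tested events in this list, 36.9% were called in K700E cells and 38.7% in WT cells, against 31.3% and 32% of all events. Of 27 elongation factor genes with enough reads, 9 rose and 10 fell in K700E cells, and 8 rose and 9 fell in WT cells. CTR9, of the complex that travels with the polymerase, had 54.8, 45.3 and 45.5 RPM in K700E cells with H3B-8800 and 199, 166 and 193 RPM with DMSO. Under the scaling by total reads, the only one run for these lists, all 5 polymerase assembly factors fell in both genotypes, but GPN3, at -0.21 and -0.22, moved no further than the median of all genes. The list had a median log2 difference of -0.65 in K700E cells and -0.7 in WT cells. Of its 101 events, 25.7% were called in K700E cells and 27.7% in WT cells, against 31.3% and 32% of all events.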

How the data were processed

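Stranded poly(A) libraries of 12 MEC1 samples were sequenced as 3 paired-end runs each, according to the labels. Cutadapt 2.4 and hg38 appear in the submitters' processing notes, and for aligner and event tool these sources name none: not given in the sources used here. Levels of events are in percent in the authors' deposited table, per the file headers, with read numbers as text beside them. These percents are ratios within a sample and were not normalized. In 4598029 values with 10 or more reads, 0 differed by more than 1 point from inclusion over all reads; 16884 read cells were missing. Another 36 columns of single runs were not used. The libraries had no molecular identifiers, so intervals cover counting error only.

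An event was tested with at least 20 reads in every sample, a mean level of 1% to 99%, balanced intron junctions (p under 0.05 in at most 6 samples) and, for alternative sites, without site 1. The log2 of inclusion over exclusion reads, each plus 0.5, entered a limma fit (limma 3.58.1, R 4.3.3) over all 109089 events and 4 groups, with Benjamini-Hochberg adjustment; a call needs an adjusted p under 0.05 and 10 points. Exon-exon reads summed per gene were expressed as log2 RPM plus 0.5 reads and fitted the same way for 10182 genes with a mean of 50 or more reads. MED14 and MED24 have 4 introns each in the table. POLR2J has near-identical copies, so its reads are uncertain.

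The members and lists were chosen with earlier results of these data known. Named were, per gene and event type, the called event with the largest difference and no overlap between groups, for at most 25 genes, and the 12 genes with the largest differences of spliced reads; other named events were chosen after their values were seen. The replicate numbers pair the samples because the labels name the same culture under both treatments. Over the logits of all tested events, the deviations of same-numbered samples correlated at 0.015 to 0.069. This was not computed for spliced reads, where the block lowered the SE of MED12 from 0.16 to 0.06. The main fit of spliced reads leaves that pairing out. Fits with the culture as a block, other scalings, filters and left-out samples were alternatives. The fits were also run on simulated data, with event changes placed only at middle levels and only in K700E samples with H3B-8800. That run does not cover exons near full inclusion or introns that are near absent without the drug. Positions of exons, introns and sequences are from GENCODE on GRCh38, the build of the files.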

Additional observations from a re-analysis of the deposited data

How the results depend on the processing

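At 20 points in place of 10, 63 member events were called with the drug in K700E cells and 66 in WT cells, and 1 between K700E and WT cells in DMSO. That last count was 4 with site 1 included, where both sites of an event are counted, 1 in a fit of the 6 samples compared, and 1 to 2 when a sample was left out. The difference of the drug effect was called for 2 events on percentage points, against 0. Between K700E and WT cells in DMSO, 2 genes were called by spliced reads with no filter on low reads, 2 in a fit of the 6 samples, and 2 to 4 when a sample was left out. Of the named events, 27 of 44 in K700E cells and 26 of 39 in WT cells kept their call in every alternative in which they were tested, 15 or 16 each, and of the called genes 20 of 27 and 24 of 28 in all 13. Under median-of-ratios scaling POLR2H lost its call and its sign changed, at 0.0554 in K700E cells and 0.0698 in WT cells (limma adjusted p = 0.655 and 0.551).

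With the culture as a replicate block, 128 events were called in K700E cells, against 130, and 131 in WT cells, as without it. The block changed 2 event calls in each genotype: it lost the MED13L and MED23 3′ sites in K700E cells and a MED17 exon in WT cells, and gained a MED23 exon in WT cells. It called 35 genes by spliced reads in K700E cells (83.3%, against 78.3% of all genes) and 39 in WT cells (92.9%, against 82.4%), 8 and 11 more, with MED16 and MED23 of the tail among those in K700E cells and MED23 in WT cells. For the difference it called 1 gene, against 0 (2.38%, against 6.05% of all genes). The block left the other calls of these contrasts as they were. Depth limits events with few reads: a count of 0 at the minimum of 20 reads allows a level of up to 15%.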
